A study of Rattus norvegicus with 12 samples.

Results

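The transcriptional response of rat cardiac progenitor cells to plating on uncoated culture dishes was measured against cells in suspension by RNA sequencing of total RNA. Cardiac progenitor cells are undifferentiated cells isolated from the heart and expanded in culture. These 6 libraries, 3 of no coating and 3 of suspension, were chosen by their culture condition from the 12 libraries of the study, which also plated cells on fibronectin and on laminin with 3 libraries each. Plated cells were seeded sparsely, so that cells did not touch, and were kept for 2 h with 0.1% serum. The labels attach the same protocol to the suspension libraries and do not say how those cells were held. All groups came from the same line, which derives from 1 clone and was grown in serum with leukemia inhibitory factor, basic fibroblast growth factor, erythropoietin and glutathione. The labels name no allele, transgene or drug that differed between the groups. The replicate number is the batch in the labels, and a batch holds 1 library of each group. The triplicates are called biological in the series design, but they share a clone, so p-values describe how batches of 1 line vary, not how animals vary.

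Cells on plastic without an added matrix protein attach through proteins that adsorb from serum or that the cells secrete. Attachment lets cells spread, engages integrins and syndecans, and alters tension in the actin cytoskeleton. The Hippo pathway reads this through the kinases LATS1 and LATS2, which keep the co-activators YAP and TAZ out of the nucleus, where they otherwise act with TEAD factors. Notch receptors are cleaved after they bind a ligand on a neighbouring cell, and the freed intracellular part acts with RBPJ on targets of the Hes and Hey families. The series title names YAP and the Polo-like kinase Plk2 as early regulators of a matrix-dependent fate.

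Total counts in the 6 libraries ran from 15875160 to 18660721, and 10020 of 16924 genes were tested. Values are CPM, the count of a gene relative to the TMM-scaled total of its library, given in the order of replicates 1, 2 and 3, and changes are log2 fold changes of no coating minus suspension ± SE from edgeR. A gene passed the test at a Benjamini-Hochberg adjusted p below 0.05, and "rose" and "fell" are used for such genes. This test left out the batch, although the replicate numbers pair the samples. A fit of all 12 libraries with the batch as a block, which uses the pairing, is given as an alternative. It fits 1 shift per batch to all groups alike. In batch 3 the plated libraries were shifted and suspension was not, as given next. Among these 6 libraries no coating 3 stood apart. On the first principal component of these 6 libraries, which held 66.8% of the variance, the suspension libraries lay between -23.7 and -20.8, no coating 1 and 2 at 6.33 and 10.7, and no coating 3 at 49.3. The other plated libraries of batch 3 were shifted the same way. On the first component of all 12 libraries (56.1% of the variance), fibronectin 3 lay at 20.8 against -1.53 and -7.04 for fibronectin 1 and 2, laminin 3 at 35 against 0.837 and -1.14, and no coating 3 at 41.9 against -3.02 and 1.46, while suspension 3 lay at -28.7 between the other suspension libraries. The mesenchymal markers were abundant, with summed levels of 8390 to 9410 CPM in suspension and 9780 to 10200 CPM on uncoated dishes. The cardiomyocyte markers Myh6, Myh7, Pln and Nkx2-5 were at 0 counts in all 6 libraries, which allows up to 3 counts, and 6 of 10 progenitor markers, among them Isl1 and Abcg2, were also at 0. Kit, the receptor by which such progenitors are commonly isolated, was tested and is described with the markers.

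Plating on uncoated dishes for 2 h was accompanied by a rise of 850 genes and a fall of 411 genes in the fit without the batch. These were 12.6% of the genes tested, 8.48% higher and 4.1% lower. Most rises were small, with a median of 0.42 over the genes that rose and -0.63 over those that fell, while the median of all tested genes was 0.00298. A rise of at least 2-fold was found for 142 genes (1.42%) and a fall of at least 2-fold for 87 genes (0.868%), and 33 genes rose and 14 fell by 4-fold or more. The 3 suspension and 3 uncoated libraries did not overlap for 1258 of the 1261 genes. The same 1258 therefore also moved in 1 direction in all 3 pairs of a batch. The exceptions were Dusp6, Spacdr and Urb2, named after their values were seen. Over all tested genes, 42.4% had ranges that did not overlap. The called genes were picked by a test that includes these libraries, so a lack of overlap is not separate support for them. In these bulk libraries, fewer cells of a type and less RNA per cell cannot be told apart.

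The number of calls depended on the batches. A fit with the batch as a block gave 2014 higher (20.1%) and 1875 lower genes (18.7%), and all 1261 calls were among them. Without batch 3, which removes no coating 3, 519 genes were higher (5.17%) and 684 lower (6.81%), and 736 of the 1261 calls were kept. Leaving out 1 library moved the total to between 537, without suspension 3, and 1285, without no coating 1. The count was more than 1.5 times lower in 4 of these 6 fits, with 567 genes when suspension 2 was removed, 537 for suspension 3, 779 for no coating 2 and 644 for no coating 3. Of 145 genes that were called and belong to a list or to the largest changes, 101 kept their call with each of the 6 libraries left out in turn. Genes described with values kept it in those fits unless stated otherwise. A fit of only these 6 libraries with the batch as a block, which has few residual degrees of freedom, called 216 genes and kept 77 of the 145. Of the 101 genes, those that lost the call there were Hes1, Rbpj, Lats2, Fjx1, Id4, Atoh8, Rnf43, Egr1, Egr3, Nr4a3, Fth1, Irf1, Nfkbiz, Itga5, Sdc1, Tns3, Fhl2, Trib1, Trib2, Bmf, Atf4, Pfkp, Gata6, S100a4, Smtn and Cd14.

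**Figure D1:**
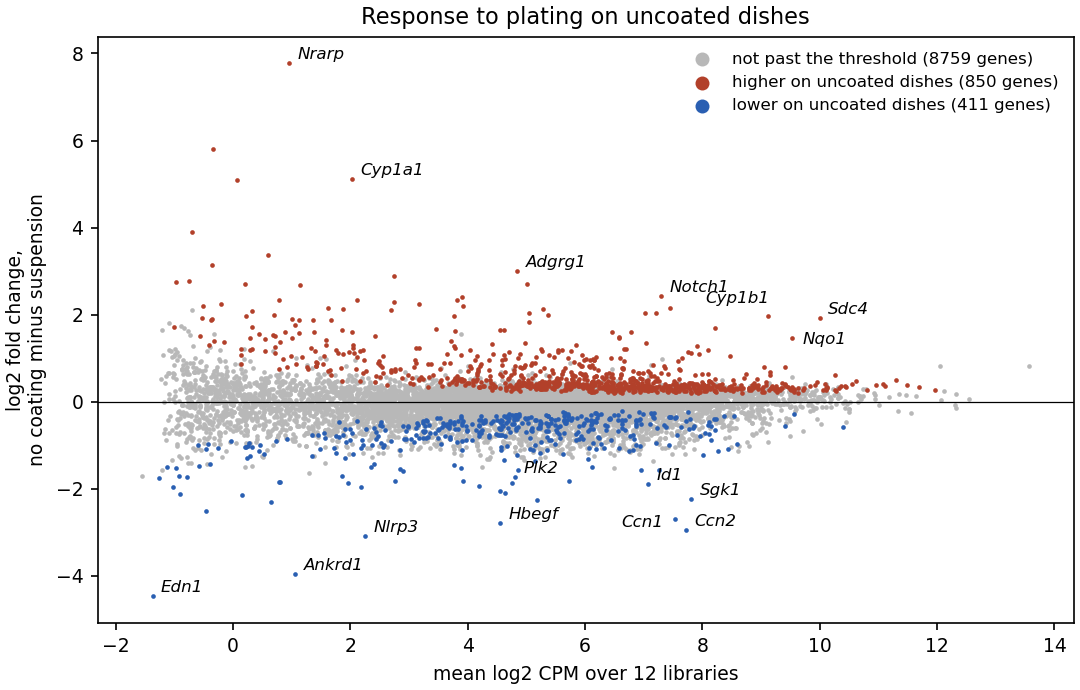
Each point is 1 of 10020 tested genes, with its mean log2 CPM over 12 libraries on the x axis and its log2 fold change, no coating minus suspension, on the y axis. The 850 genes in red rose and the 411 in blue fell past an adjusted p of 0.05, and the labelled genes include Nrarp and Cyp1a1 at the top and Ccn1, Ccn2, Ankrd1 and Nlrp3 at the bottom.

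Most tested components and targets of Notch signalling rose. Of 14 tested genes of the Notch list, 9 rose and 2 fell (78.6% called, beside 12.6% of all tested genes), with a median of 1.08. A further 3 genes were below the count filter and 3 were not analysed here. This and the other lists were chosen with earlier results of these data known, so their shares called are not independent of the data. The targets Hey1, Hey2, Hes1 and Nrarp rose, as did the receptors Notch1 and Notch3 and the ligand gene Jag1. Hes1 and Hey2 encode repressors that are read out as direct targets of the pathway, and their promoters are shown because both contain the core of the RBPJ motif, TGGGAA on either strand, printed in capitals. The windows run 5′ to 3′ on the gene's strand from 250 bases before to 50 bases after the start, from RefSeq on the build GRCr8.
Hes1: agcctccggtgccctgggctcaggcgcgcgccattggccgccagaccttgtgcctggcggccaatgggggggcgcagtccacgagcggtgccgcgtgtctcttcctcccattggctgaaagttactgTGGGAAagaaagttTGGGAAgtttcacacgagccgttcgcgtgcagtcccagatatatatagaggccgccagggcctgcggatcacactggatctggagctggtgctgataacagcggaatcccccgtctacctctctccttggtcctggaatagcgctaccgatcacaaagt
Hey2: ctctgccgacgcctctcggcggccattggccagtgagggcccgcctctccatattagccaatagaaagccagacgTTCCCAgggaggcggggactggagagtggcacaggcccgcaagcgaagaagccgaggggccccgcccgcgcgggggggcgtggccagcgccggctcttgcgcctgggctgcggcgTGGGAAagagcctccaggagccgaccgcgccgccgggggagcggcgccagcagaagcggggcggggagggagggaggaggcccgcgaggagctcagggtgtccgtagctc
This core was present in 25.7% of all 33469 promoters and 22.5% of the promoters of tested genes, and in 8 of the 14 promoters of tested members of the Notch list. It did not separate members by direction. Among those that rose, Hes1, Hey2, Notch3 and Dll1 held it, and Notch1, Jag1, Nrarp and Maml1 did not. Rbpj and Lfng, which fell, and Notch4, which did not pass, also held it. A match of this length is a description of the letters and not a binding site.

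Hes1 was at 19.4, 61.5 and 49.0 CPM in suspension and 131, 119.8 and 115 CPM on uncoated dishes, a change of 1.49 ± 0.30 (adjusted p = 0.00988). Suspension 1 was the lowest of the 6 libraries, and the groups did not overlap. Its call ended when only the 2 groups were fitted. Hey2 was at 4.17, 3.53 and 3.60 CPM in suspension and 22.4, 20.6 and 13.9 CPM on uncoated dishes, a change of 2.33 ± 0.18 (adjusted p = 2.09e-05), with no coating 3 the lowest of the uncoated libraries and still above each suspension library. Nrarp, an inhibitor of Notch that is itself switched on by Notch, had 1 count over the 3 suspension libraries and 102, 66 and 121 counts on uncoated dishes. Scaled to library size this was a ratio of 300, with a 95% exact binomial interval of 53.5 to 11900 that covers counting error only. Hey1 had 3 counts in suspension and 48 on uncoated dishes, a ratio of 16.6 with an interval of 5.36 to 83.45. Both genes therefore rested on almost no reads in suspension and on counts in each of the uncoated libraries. They passed the count filter through the plated libraries alone, so their places among the tested genes depend on the groups where they were high.

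Among the receptors, Notch1 was at 52.5, 46.7 and 51.1 CPM in suspension and 263, 263 and 285 CPM on uncoated dishes and rose by 2.43 ± 0.11. The uncoated libraries lay within a narrow band far above suspension. Notch3 was at 2.12, 2.41 and 2.77 CPM in suspension and 13.6, 7.49 and 10.3 CPM on uncoated dishes, a change of 2.11 ± 0.33, and Notch2 was at 369, 383 and 367 CPM in suspension and 282, 308 and 307 CPM on uncoated dishes, which did not pass the test (adjusted p = 0.0559, and 0.0181 with the batch as a block). The ligand gene Jag1 was at 33.3, 43.5 and 43.2 CPM in suspension and 83.6, 78.6 and 74.8 CPM on uncoated dishes and rose by 0.98 ± 0.11. The members that fell act at other steps. Rbpj, the DNA-binding partner of the cleaved receptor, was at 249, 306 and 297 CPM in suspension and 163, 161 and 102 CPM on uncoated dishes and fell, with means of 284 ± 30.7 CPM in suspension and 142 ± 34.8 CPM on uncoated dishes (SD, n = 3) and an edgeR adjusted p of 0.00711. Lfng, a glycosyltransferase that modifies Notch receptors, fell by 0.87 ± 0.12. The call of the ligand gene Dll1, which rose by 1.18 ± 0.26, ended without suspension 2 or 3, or without no coating 3, or without batch 3 (adjusted p up to 0.0806). The call of Maml1, a co-activator, ended without suspension 1, 2 or 3, or without no coating 1, 2 or 3, or without batch 3 (adjusted p up to 0.139).

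Part of the YAP and TAZ targets fell, and 1 rose. Of 17 tested genes of this list, 7 fell and 1 rose (47.1%), with a median of -0.60, while 1 was below the filter and 6 were not analysed here. The promoters of 5 of the genes that fell are shown because each holds the core of the TEAD motif, GGAATG on either strand, in capitals. Ccn2 holds it 3 times and the others once.
Ccn1: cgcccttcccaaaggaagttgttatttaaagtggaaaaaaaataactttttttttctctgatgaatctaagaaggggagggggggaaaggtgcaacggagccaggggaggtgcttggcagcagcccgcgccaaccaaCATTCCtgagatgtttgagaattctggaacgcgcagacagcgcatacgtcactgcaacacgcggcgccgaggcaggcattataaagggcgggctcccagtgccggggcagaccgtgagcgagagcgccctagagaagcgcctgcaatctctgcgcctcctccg
Ccn2: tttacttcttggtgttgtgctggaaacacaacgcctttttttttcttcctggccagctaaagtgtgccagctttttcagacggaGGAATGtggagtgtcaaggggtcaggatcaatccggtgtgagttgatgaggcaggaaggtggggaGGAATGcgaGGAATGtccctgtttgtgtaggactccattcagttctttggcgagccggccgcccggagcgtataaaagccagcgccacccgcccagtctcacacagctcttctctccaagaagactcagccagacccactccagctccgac
Nuak2: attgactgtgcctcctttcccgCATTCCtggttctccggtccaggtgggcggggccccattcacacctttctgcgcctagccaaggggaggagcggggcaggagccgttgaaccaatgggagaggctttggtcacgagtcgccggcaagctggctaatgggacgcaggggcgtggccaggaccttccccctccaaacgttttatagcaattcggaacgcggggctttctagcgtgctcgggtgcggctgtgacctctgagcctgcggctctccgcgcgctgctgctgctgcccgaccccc
Ajuba: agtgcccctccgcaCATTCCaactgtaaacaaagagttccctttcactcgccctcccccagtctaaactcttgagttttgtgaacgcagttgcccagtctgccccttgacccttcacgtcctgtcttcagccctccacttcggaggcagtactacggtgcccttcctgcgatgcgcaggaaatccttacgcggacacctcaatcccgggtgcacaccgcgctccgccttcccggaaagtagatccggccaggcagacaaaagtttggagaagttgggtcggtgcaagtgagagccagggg
Amotl2: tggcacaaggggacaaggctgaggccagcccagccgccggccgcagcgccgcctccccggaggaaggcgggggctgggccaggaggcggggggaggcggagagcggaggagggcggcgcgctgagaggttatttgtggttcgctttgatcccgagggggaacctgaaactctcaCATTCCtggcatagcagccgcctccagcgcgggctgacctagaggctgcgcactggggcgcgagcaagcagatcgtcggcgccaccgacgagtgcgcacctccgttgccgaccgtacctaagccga
The core was present in 14.2% of all promoters and 11.1% of those of tested genes, and in 6 of the 13 promoters found for tested members of the list. Of the 6 promoters found for called members, 5 held it, and Fjx1, the member that rose, did not. Ptpn14, at -0.044 and not past the test, also held it. The list was chosen as targets of YAP and TAZ, which act with TEAD, so its share is not independent of the motif. These matches too describe letters and not binding sites, and whether TEAD acted on these genes was not tested. Promoters of Ankrd1 and Lats2 were not analysed here.

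Ccn2, which encodes a secreted matricellular protein, was at 659, 765 and 594 CPM in suspension and 103, 79.4 and 77.7 CPM on uncoated dishes and fell by 2.96 ± 0.23 (adjusted p = 1.65e-05). Ccn1, from the same family, was at 437, 585 and 554 CPM in suspension and 114, 56.5 and 72.1 CPM on uncoated dishes and fell by 2.70 ± 0.34 (adjusted p = 0.000527). In each gene the highest uncoated library was replicate 1, and it remained far under the lowest suspension library. Ankrd1, a nuclear cofactor, was at 7.81, 12.9 and 9.86 CPM in suspension and 0.548, 0.512 and 0.881 CPM on uncoated dishes and fell by 3.96 ± 0.28.

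Ajuba, a LIM-domain adaptor that binds LATS kinases, was at 119, 126 and 115 CPM in suspension and 42.3, 41.7 and 42.7 CPM on uncoated dishes, a change of -1.51 ± 0.11. Nuak2, an AMPK-related kinase, was at 12.9, 12.3 and 11.8 CPM in suspension and 4.33, 4.16 and 3.70 CPM on uncoated dishes, a change of -1.600 ± 0.11. Amotl2, an angiomotin that binds YAP, was at 247, 264 and 248 CPM in suspension and 164, 160.3 and 176 CPM on uncoated dishes, a change of -0.60 ± 0.099. These genes varied little within a group and their groups did not overlap. Lats2 fell by 0.52 ± 0.083. Fjx1, a secreted kinase-like protein, rose by 0.78 ± 0.17, a call that ended when only the 2 groups were fitted. Among the members that did not pass were Axl at -0.094, Ptpn14 at -0.044, F3 at -0.63 and Crim1 at -0.58. The block by batch gave 13 lower members and 1 higher, and without batch 3 the counts were 8 lower and 1 higher.

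None of the 13 tested genes of the Hippo core passed the test (0 of 13, median -0.28), among them Yap1 at -0.14 ± 0.064 (adjusted p = 0.165) and Wwtr1, which encodes TAZ, at -0.36 ± 0.14 (adjusted p = 0.104, and 0.0190 with the block). In the fit with the block 6 of them were lower, and 3 were lower without batch 3. Of the Polo-like kinases, Plk2 fell. It was at 38.4, 62.0 and 47.8 CPM in suspension and 15.7, 15.2 and 13.6 CPM on uncoated dishes, a change of -1.74 ± 0.16 (adjusted p = 6.41e-05), and the lowest suspension library, replicate 1, lay above each uncoated library. Plk1, a mitotic kinase, was at -0.19 ± 0.095 (adjusted p = 0.184), Plk3 at -0.31 ± 0.13 (adjusted p = 0.136) and Plk4 at -0.91 ± 0.43 (adjusted p = 0.174). All 4 kinases were lower in the fit with the block.

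**Figure D2:**
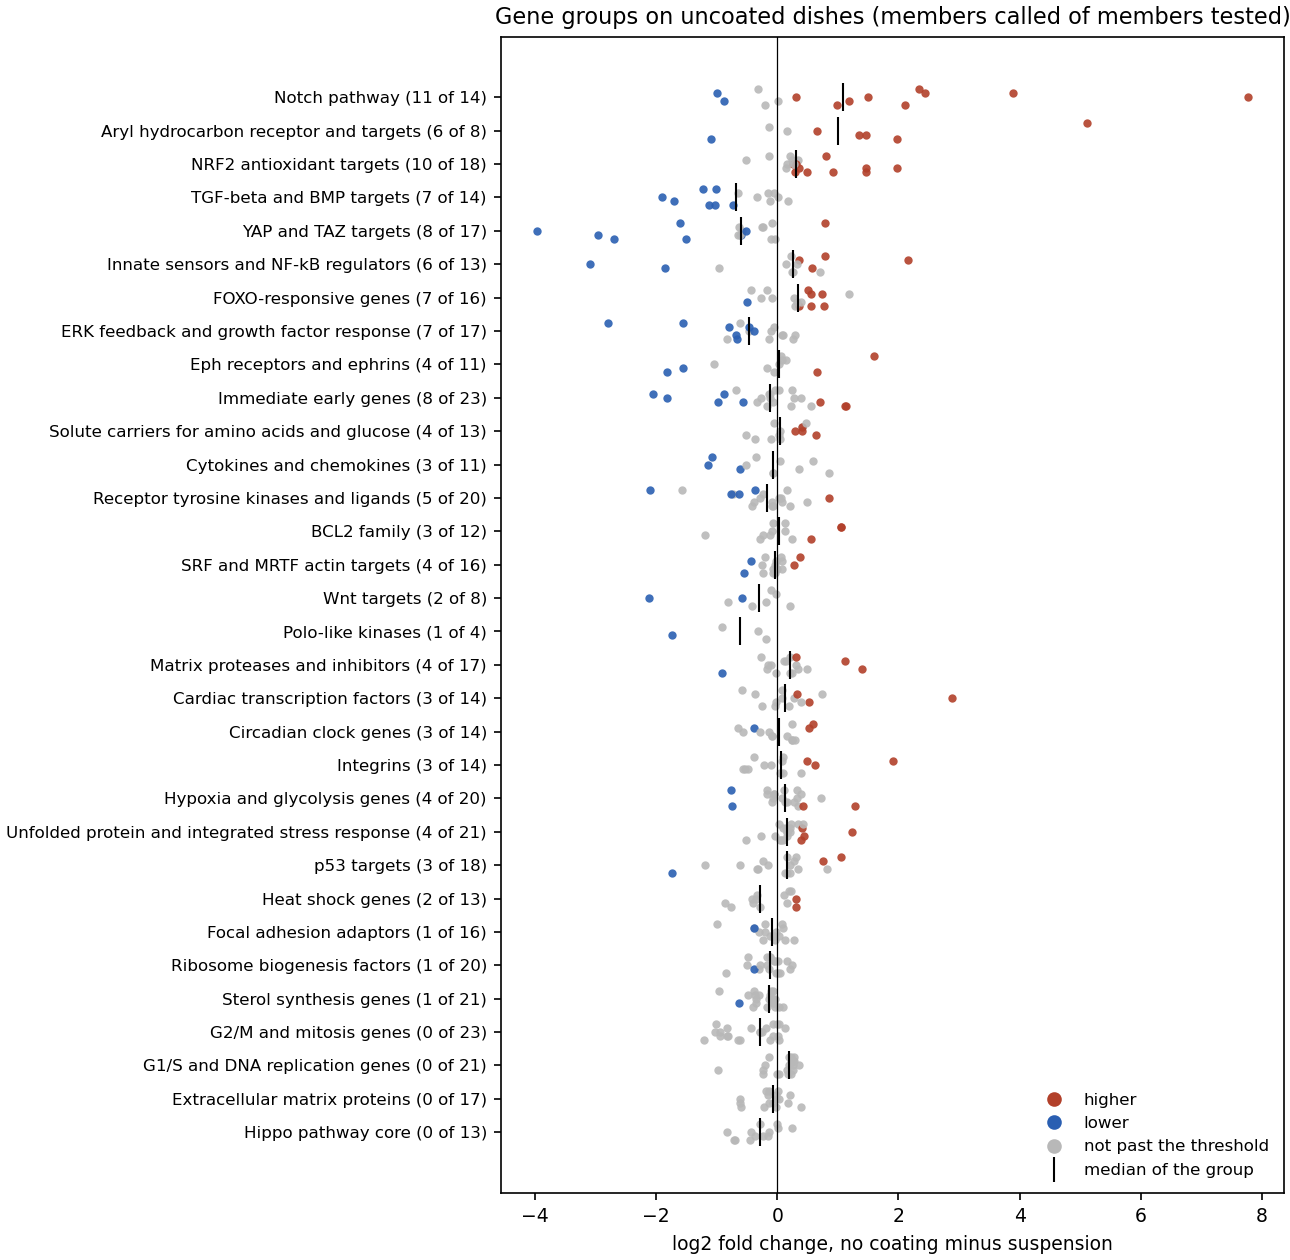
Each point is a tested gene of the list on its row, placed on the x axis by its log2 fold change, no coating minus suspension, and the black bar is the median of the list. Red members rose, blue members fell and grey members did not pass. In this fit without the batch the Notch list holds 11 called genes of 14 while the Hippo core, matrix proteins and both cell cycle lists hold 0. With the batch as a block 6 Hippo core and 14 G2/M genes were lower and 0 higher. For G1/S genes 10 were then higher and 3 lower, and for matrix proteins 3 higher and 2 lower.

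Part of the targets of bone morphogenetic protein (BMP) and TGF-beta signalling fell, and none of them rose. These pathways act through phosphorylated SMAD proteins and switch on ID genes, which encode inhibitors of basic helix-loop-helix factors. Of 14 tested genes 7 fell and 0 rose (50%), with a median of -0.68. The 7 were Id1, Id3, Id4, the inhibitory Smad6 and Smad7, Smad9 and Atoh8, and each of them kept its call with any library left out. Id1 was at 429, 351 and 397 CPM in suspension and 84.8, 117 and 113 CPM on uncoated dishes, a change of -1.90 ± 0.20 (adjusted p = 0.000168). Id3 was at 516, 461 and 530.0 CPM in suspension and 155, 239.8 and 251 CPM on uncoated dishes, a change of -1.22 ± 0.22. Suspension and uncoated libraries did not overlap in either gene, and the uncoated library with the lowest Id1 was replicate 1. Smad6 was at 36.1, 37.9 and 43.9 CPM in suspension and 17.7, 19.5 and 21.4 CPM on uncoated dishes and fell by 1.01 ± 0.15, Smad7 fell by 1.03 ± 0.087 and Smad9, a BMP receptor substrate, fell by 1.71 ± 0.16. Genes more closely tied to TGF-beta did not pass, with Tgfbi at 0.013 ± 0.21 and Pmepa1 at -0.34 ± 0.13 (adjusted p = 0.106), although Pmepa1 was lower with the block (adjusted p = 0.00681).

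Of 8 tested Wnt targets 2 fell (25%). Rnf43, a ubiquitin ligase that removes Frizzled receptors from the cell surface, was at 1.12, 1.06 and 1.22 CPM in suspension and 0.329, 0.128 and 0.294 CPM on uncoated dishes, a change of -2.12 ± 0.33. These values rest on 19, 19 and 22 counts in suspension and 6, 2 and 5 counts on uncoated dishes. Rnf43 passed the count filter through the suspension libraries alone, so its place among the tested genes depends on the group where it was high. Ccnd1, cyclin D1, was at 1553, 1986 and 1933 CPM in suspension and 1093, 1232 and 1322 CPM on uncoated dishes, a change of -0.58 ± 0.11. Axin2, a feedback inhibitor widely used as a readout of Wnt signalling, was at -0.42 (adjusted p = 0.163). The receptor gene Fzd1, which is among the 20 largest falls, was at 334, 229 and 257 CPM in suspension and 97.0, 89.6 and 90.8 CPM on uncoated dishes and fell by 1.56 ± 0.13. Its uncoated libraries lay close together, and each suspension library was far above them.

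Part of the genes that dampen ERK signalling or answer growth factors fell, as did several immediate early genes. ERK is the kinase at the end of the receptor, RAS and RAF cascade, and its targets include phosphatases and Sprouty proteins that limit it. Of 17 tested genes of this list 7 fell and 0 rose (41.2%), with a median of -0.47. The list's medians within batches 1, 2 and 3 were 0.0204, -0.655 and -0.539, so batch 1 showed no fall of the list as a whole. Without batch 3 the counts were 3 lower and 1 higher. Hbegf, a ligand of the EGF receptor, was at 49.9, 137 and 93.2 CPM in suspension and 14.9, 13.4 and 12.3 CPM on uncoated dishes, a change of -2.79 ± 0.29 (adjusted p = 0.000168). Suspension varied, with replicate 2 the highest, and the uncoated libraries were tightly grouped below. Epha2, an ephrin receptor, was at 223, 408 and 332 CPM in suspension and 109, 103 and 114 CPM on uncoated dishes, a change of -1.56 ± 0.19. The other 5 calls were less firm. Spry2, at -0.66 ± 0.13, and Spred2, at -0.38 ± 0.076, lost the call without suspension 3 or without batch 3 (adjusted p up to 0.0641 and 0.0589), and Errfi1, an inhibitor of the EGF receptor at -0.68 ± 0.14, lost it without suspension 3 (adjusted p = 0.0525). The call of Dusp6 ended without suspension 2 or 3, or without no coating 1, 2 or 3, or without batch 3 (adjusted p up to 0.173). The call of Spred3 ended without suspension 1, 2 or 3, or without no coating 2 or 3, or without batch 3 (adjusted p up to 0.157). Without suspension 3 the list held 2 genes that fell.

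Immediate early genes moved in both directions. Of 23 tested, 3 rose and 5 fell (34.8%), with a median of -0.11. Egr1 was at 37.1, 107 and 102 CPM in suspension and 27.7, 15.7 and 16.1 CPM on uncoated dishes, a change of -2.05 ± 0.38 (adjusted p = 0.00645), with suspension 1 lower than suspension 2 and 3 and above each uncoated library. Dusp1, a phosphatase of MAP kinases, was at 97.6, 136 and 151 CPM in suspension and 32.8, 33.7 and 42.3 CPM on uncoated dishes, a change of -1.82 ± 0.18. Klf4 fell by 0.98 ± 0.11, Junb by 0.87 ± 0.15 and Nr4a3 by 0.57 ± 0.096. In contrast Egr3 was at 2.00, 2.86 and 2.94 CPM in suspension and 6.63, 4.61 and 5.87 CPM on uncoated dishes, a change of 1.13 ± 0.22, and Ier5 rose by 0.70 ± 0.10. The call of Atf3, at 1.12 ± 0.27, ended without suspension 2 or 3, or without no coating 1 or 3, or without batch 3 (adjusted p up to 0.0960). Fos was at 2.47, 5.38 and 5.21 CPM in suspension and 4.76, 4.35 and 3.41 CPM on uncoated dishes and did not pass the test (adjusted p = 0.875), and Myc was at -0.13 (adjusted p = 0.466). The CArG box, the motif of the serum response factor SRF, was found on either strand in 4 of the 15 promoters of tested members and in 1 of the 5 of called members, beside 1.64% of all promoters and 1.19% of those of tested genes.

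Of 20 tested receptor tyrosine kinases and ligands, 4 fell and 1 rose (25%). Fgf7, a ligand that stromal cells send to epithelium, was at 70.6, 66.5 and 68.5 CPM in suspension and 18.8, 20.2 and 8.81 CPM on uncoated dishes, a change of -2.10 ± 0.31. The lowest of its 3 uncoated libraries was replicate 3. Vegfa, the angiogenic ligand, was at 162, 193 and 181 CPM in suspension and 104, 110.1 and 101 CPM on uncoated dishes, a change of -0.76 ± 0.075. The call of Met, the receptor of hepatocyte growth factor at -0.63 ± 0.16, ended without suspension 2 or 3, or without no coating 3 (adjusted p up to 0.0902). The call of Pdgfa, at -0.37 ± 0.10, ended without suspension 1, 2 or 3, or without no coating 1, 2 or 3, or without batch 3 (adjusted p up to 0.118). Pdgfrb rose by 0.85 ± 0.20, a call that ended without suspension 2 or 3, or without no coating 1, or without batch 3 (adjusted p up to 0.0861).

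Eph receptors and ephrins, which signal in both directions between touching cells, also split. Ephb3 was at 46.0, 38.2 and 39.8 CPM in suspension and 113, 126 and 136 CPM on uncoated dishes, a rise of 1.596 ± 0.12, and Efna1 was at 108, 101 and 105 CPM in suspension and 159, 158 and 179.6 CPM on uncoated dishes, a rise of 0.66 ± 0.094. Efnb2 was at 33.2, 39.2 and 34.1 CPM in suspension and 11.4, 11.01 and 7.75 CPM on uncoated dishes, a change of -1.82 ± 0.14, and with Epha2 it made 2 falls beside 2 rises among 11 tested genes (36.4%). All 4 kept their calls with each library left out. Bdnf, a neurotrophin among the 20 largest falls, was at 58.3, 60.6 and 67.6 CPM in suspension and 21.7, 22.4 and 18.5 CPM on uncoated dishes and fell by 1.57 ± 0.16, with groups that did not overlap.

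Many genes of xenobiotic and oxidant defence rose. The aryl hydrocarbon receptor is a ligand-activated transcription factor that induces cytochrome P450 genes and its own repressor, Ahrr. Of its 8 tested genes 5 rose and 1 fell (75%), with a median of 0.997. The promoters of Cyp1b1 and Ahrr are shown with the core of the receptor's motif, TNGCGTG on either strand, in capitals.
Cyp1b1: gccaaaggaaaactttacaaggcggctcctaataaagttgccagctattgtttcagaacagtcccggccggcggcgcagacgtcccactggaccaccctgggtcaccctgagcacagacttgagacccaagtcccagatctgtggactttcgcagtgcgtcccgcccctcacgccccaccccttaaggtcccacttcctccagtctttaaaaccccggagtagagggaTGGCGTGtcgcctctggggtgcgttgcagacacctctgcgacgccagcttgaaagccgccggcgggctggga
Ahrr: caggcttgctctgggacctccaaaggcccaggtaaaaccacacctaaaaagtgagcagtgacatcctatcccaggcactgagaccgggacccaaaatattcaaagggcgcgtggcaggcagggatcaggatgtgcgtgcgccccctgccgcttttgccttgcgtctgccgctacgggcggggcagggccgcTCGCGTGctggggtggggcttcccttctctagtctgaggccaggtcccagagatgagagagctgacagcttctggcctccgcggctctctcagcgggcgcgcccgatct
This core was present in 4.89% of all promoters and 8.12% of those of tested genes, and in 2 of the 6 promoters found for tested members. Cyp1a1 was at 0.0587, 0.448 and 0.332 CPM in suspension and 5.20, 15.8 and 9.16 CPM on uncoated dishes, a change of 5.11 ± 0.71 (adjusted p = 0.00111), so that it was nearly absent in suspension and present in each uncoated library. It passed the count filter through the plated libraries alone, so its place among the tested genes depends on the groups where it was high. Cyp1b1 was at 236, 184 and 201 CPM in suspension and 932, 901 and 608 CPM on uncoated dishes, a change of 1.97 ± 0.21 (adjusted p = 0.000197), with no coating 3 the lowest of its group and above all suspension libraries. Ahrr was at 13.98, 16.5 and 15.96 CPM in suspension and 35.4, 46.3 and 36.4 CPM on uncoated dishes, a rise of 1.35 ± 0.13. The receptor gene itself, Ahr, was at 120.4, 123 and 114 CPM in suspension and 68.0, 62.1 and 37.5 CPM on uncoated dishes and fell by 1.10 ± 0.26, a call that ended without suspension 1, 2 or 3, or without no coating 3 (adjusted p up to 0.0673). Aldh3a1, an aldehyde dehydrogenase, rose by 0.65 ± 0.16, a call that ended without suspension 1, 2 or 3, or without no coating 2 or 3, or without batch 3 (adjusted p up to 0.0967).

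NRF2 is the factor that induces antioxidant enzymes once its inhibitor KEAP1 is modified. Of 18 tested targets and regulators 10 rose and 0 fell (55.6%), with a median of 0.30. Nqo1, a quinone reductase that belongs to the aryl hydrocarbon receptor list as well, was at 273, 454 and 351 CPM in suspension and 805, 1117 and 1066 CPM on uncoated dishes, a change of 1.47 ± 0.20 (adjusted p = 0.00104). Its groups did not overlap, and replicate 1 was the lowest library in both. Osgin1, a growth inhibitor induced by oxidative stress, was at 16.1, 14.6 and 14.4 CPM in suspension and 49.0, 59.1 and 70.2 CPM on uncoated dishes, a change of 1.98 ± 0.13. Hmox1, heme oxygenase, was at 48.0, 64.1 and 53.4 CPM in suspension and 106, 165 and 188 CPM on uncoated dishes, a change of 1.47 ± 0.27.

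In each of these genes the uncoated libraries lay above all suspension libraries. Srxn1, sulfiredoxin, rose by 0.92 ± 0.10, Sqstm1, the autophagy receptor p62, by 0.81 ± 0.10, and Fth1, the ferritin heavy chain, by 0.50 ± 0.10, although near-identical copies of Fth1 make its counts uncertain. The smaller rises of Gsr (0.29), Prdx1 (0.31) and Txn1 (0.35) each lost the call with 1 or more libraries left out (adjusted p up to 0.144, 0.076 and 0.077). The list held 6 genes that rose without no coating 2, and 11 without batch 3. Nfe2l2, which encodes NRF2, was at 0.21 (adjusted p = 0.555, and 0.0146 without batch 3), and Gclm, a subunit of the rate-limiting enzyme of glutathione synthesis, at -0.14 (adjusted p = 0.407). The core of the NRF2 motif, TGACNNNGC on either strand, was found in 5 of the 14 promoters of tested members and in 1 of the 6 of called members, beside 12.1% of all promoters and 14.9% of those of tested genes.

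**Figure D3:**
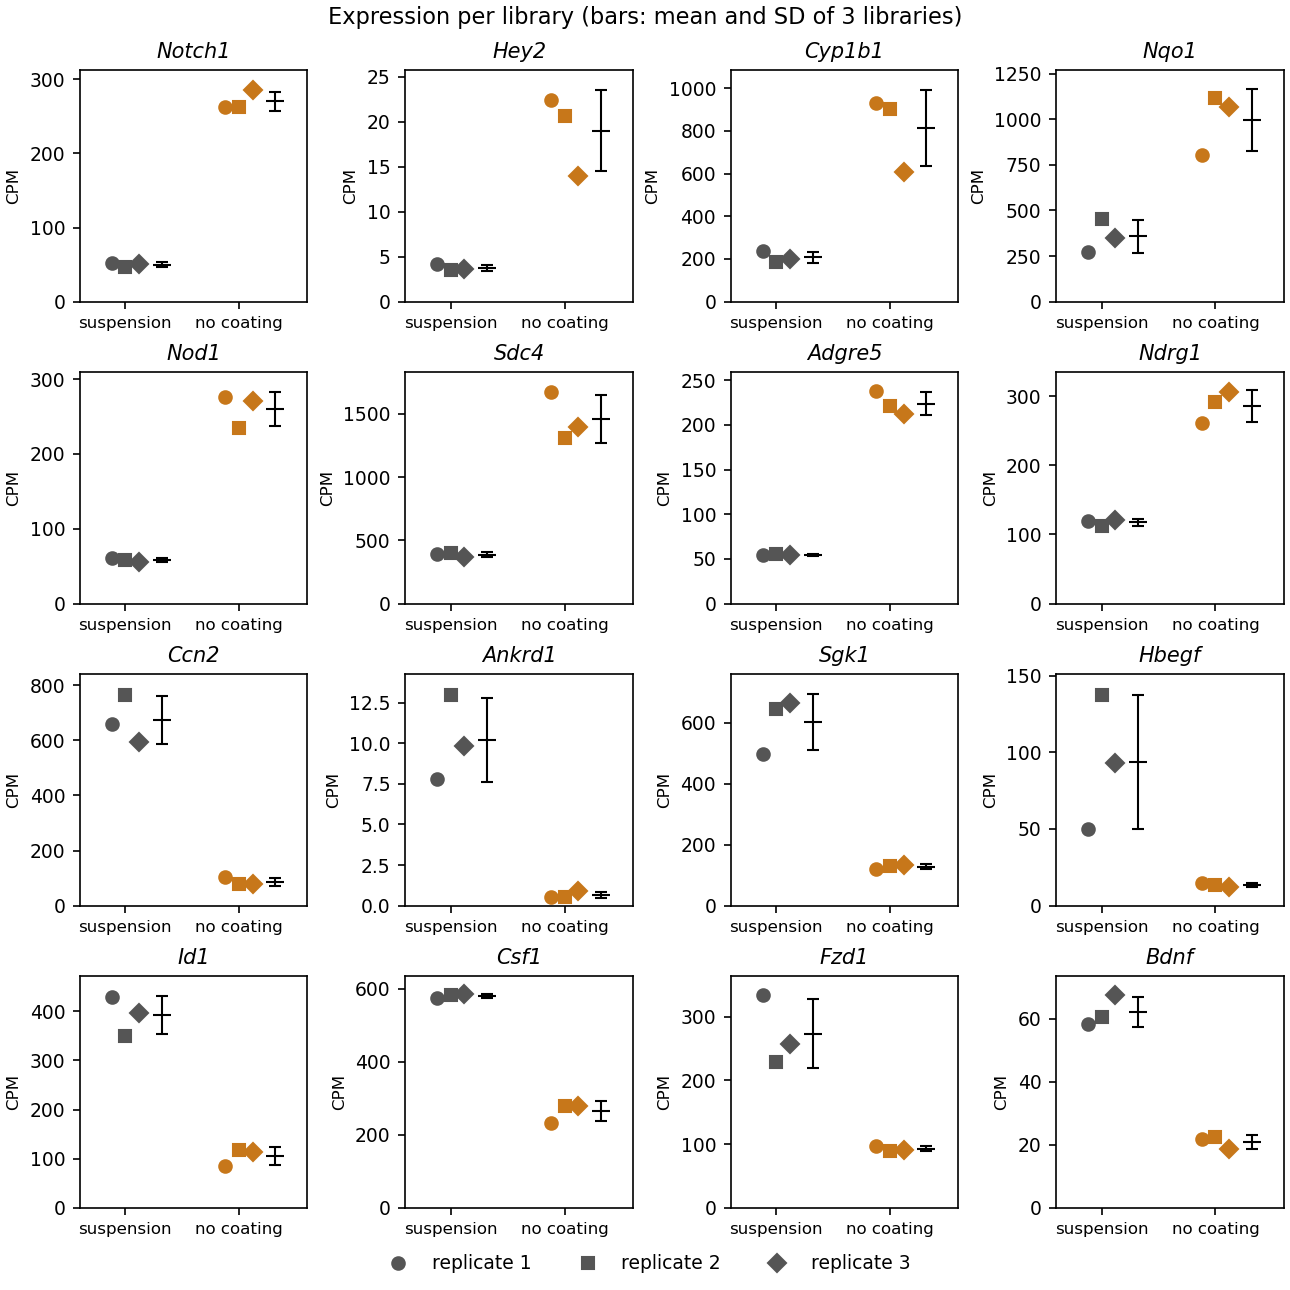
Each panel shows 1 gene, with CPM on the y axis from 0, 3 suspension libraries in grey and 3 uncoated libraries in orange, a marker shape for each replicate number, and the mean and SD of 3 libraries as a bar. The 8 genes in the upper panels rose and the 8 in the lower panels fell, and the groups do not overlap in any of the 16 genes. The 16 were chosen among called genes, of which 1258 of 1261 do not overlap, beside 42.4% of all tested genes.

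Innate sensors moved in opposite directions. Nod1, which senses fragments of bacterial cell wall, was at 61.5, 58.3 and 55.9 CPM in suspension and 276, 234 and 271 CPM on uncoated dishes, a change of 2.15 ± 0.11 (adjusted p = 1.18e-06). Nlrp3, the sensor of an inflammasome, was at 15.3, 20.29 and 13.6 CPM in suspension and 2.25, 1.86 and 1.64 CPM on uncoated dishes, a change of -3.09 ± 0.20 (adjusted p = 5.67e-06). The groups were far apart for both. Of 13 tested sensors and regulators of NF-kB 4 rose and 2 fell (46.2%), with a median of 0.27. Nfkbia, the classical inhibitor of NF-kB and one of its targets, rose by 0.78 ± 0.082, and Irf1, an interferon-related factor, by 0.58 ± 0.10. Nfkbiz, a nuclear relative of Nfkbia, was at 47.8, 77.3 and 78.7 CPM in suspension and 24.3, 20.03 and 11.8 CPM on uncoated dishes and fell by 1.86 ± 0.32. The call of Nfkb2 ended without suspension 1, 2 or 3, or without no coating 2 or 3, or without batch 3 (adjusted p up to 0.101). Of 11 tested cytokines and chemokines 3 fell (27.3%). Csf1, the growth factor of macrophages, was at 576, 582 and 587 CPM in suspension and 233, 280.1 and 280.2 CPM on uncoated dishes, a change of -1.14 ± 0.10, and Cxcl12, a chemokine that retains progenitors, fell by 0.62 ± 0.11. The call of Cxcl1, at -1.08 ± 0.26, ended without suspension 1, 2 or 3, or without no coating 2 or 3 (adjusted p up to 0.0645). Ccl2 was at 97.8, 102 and 91.1 CPM in suspension and 218, 211 and 95.2 CPM on uncoated dishes and did not pass (adjusted p = 0.0989), with no coating 3 far under the other 2 uncoated libraries. It was higher on uncoated dishes without batch 3 (adjusted p = 9.81e-05) and with the block (adjusted p = 0.0143).

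Among 14 tested integrins and other matrix receptors 3 rose (21.4%). Sdc4, a heparan sulfate proteoglycan that acts with integrins at focal adhesions, was at 389, 404 and 368 CPM in suspension and 1677, 1313 and 1396 CPM on uncoated dishes, a change of 1.92 ± 0.14 (adjusted p = 8.68e-06). Sdc1, a related proteoglycan, was at 797, 1034 and 929 CPM in suspension and 1344, 1408 and 1477 CPM on uncoated dishes, a change of 0.62 ± 0.087. Itga5, the alpha subunit of the main fibronectin receptor, was at 279.9, 317 and 315 CPM in suspension and 397, 410.3 and 474 CPM on uncoated dishes, a change of 0.49 ± 0.096. All 3 kept their calls with each library left out. The common beta subunit Itgb1 was at -0.21 ± 0.17 (adjusted p = 0.405), and the laminin-binding Itga6 and Itga7 at -0.39 and 0.050. With the block 3 members were higher and 3 lower, Itga6 among the latter (adjusted p = 0.0140).

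Of 16 tested focal adhesion adaptors 1 fell (6.25%), Tns3 at -0.39 ± 0.060, a tensin. The count was 2 without no coating 1, without no coating 2 or without batch 3, 3 with library size scaling, 4 with DESeq2 and 5 with the block. Ptk2, focal adhesion kinase, was at -0.39 (adjusted p = 0.0591, and 0.0115 with the block), Pxn, paxillin, at 0.071, and Tln1, talin, at -0.12, none of which passed. None of 17 tested matrix protein genes passed (median -0.07 over these 17). Fn1, fibronectin, was at 6119.7, 5827 and 5491 CPM in suspension and 5497, 5109 and 5230.2 CPM on uncoated dishes, a value of -0.14 ± 0.092 (adjusted p = 0.305), and the laminin chain gene Lamc1 at 0.0051 ± 0.065 (adjusted p = 0.963). With the block 3 matrix genes were higher and 2 lower, beside 20.1% higher and 18.7% lower over all genes in that fit.

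Among 17 tested proteases and inhibitors 3 rose and 1 fell (23.5%). Plat, tissue plasminogen activator, was at 120.1, 129.8 and 123 CPM in suspension and 303, 262 and 248 CPM on uncoated dishes, a change of 1.12 ± 0.10. Adamts4, an aggrecanase, was at 7.64, 7.40 and 8.03 CPM in suspension and 21.3, 16.4 and 23.2 CPM on uncoated dishes, a change of 1.40 ± 0.19, and the related Adamts1 was at 74.8, 59.1 and 59.3 CPM in suspension and 37.3, 32.8 and 32.3 CPM on uncoated dishes, a change of -0.92 ± 0.12. The groups did not overlap in these 3 genes. Timp1, an inhibitor of metalloproteinases, rose by 0.31 ± 0.069, a call that ended without suspension 2 or 3, or without no coating 3, or without batch 3 (adjusted p up to 0.0674). Targets of SRF and its actin-sensing partner MRTF did not move together. Of 16 tested 2 rose and 2 fell (25%), the median was -0.04, and 0 to 2 rose and 1 to 2 fell with 1 library left out. The rises were Tagln2 (0.37) and Tpm2 (0.28), neither of which passed when suspension 2, suspension 3 or no coating 3 was removed, and the falls were Tgfb1i1 (-0.56), whose call ended without suspension 1 or 2, or without no coating 1, 2 or 3 (adjusted p up to 0.109), and Fhl2 (-0.44), whose call ended when only the 2 groups were fitted. Vcl, vinculin, was at -0.21 (adjusted p = 0.0767, and 0.00850 with the block) and Actb, beta-actin, at -0.068, neither past the threshold.

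Genes that respond to FOXO factors, which are active when AKT signalling is low, rose in part. Of 16 tested 6 rose and 1 fell (43.8%), with a median of 0.34. Irs2, an adaptor of the insulin receptor, was at 125, 118 and 121 CPM in suspension and 204, 191 and 214 CPM on uncoated dishes, a change of 0.74 ± 0.098. Trib1, a pseudokinase, was at 58.3, 74.6 and 70.5 CPM in suspension and 108, 93.2 and 99.1 CPM on uncoated dishes, a change of 0.56 ± 0.10. Trib2 rose by 0.51 ± 0.10, a call that ended when only the 2 groups were fitted. Txnip, an inhibitor of thioredoxin and of glucose uptake, rose by 0.77 ± 0.18, a call that ended without suspension 2 or 3, or without no coating 1 (adjusted p up to 0.0847). The remaining calls, Foxo3 (0.35), Bcl2l11 (0.55) and Bcl6 (-0.50), also ended with single libraries left out, and 3 members rose without suspension 2 or without suspension 3.

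Sgk1, a serum- and glucocorticoid-induced kinase related to AKT, is in none of the lists and is among the 20 largest falls. It was at 496, 646 and 664 CPM in suspension and 119.6, 129.6 and 135 CPM on uncoated dishes, a change of -2.23 ± 0.11 (adjusted p = 9.95e-07), and the highest uncoated library lay far under the lowest suspension library. Of 12 tested genes of the BCL2 family 3 rose (25%). Bmf, a pro-apoptotic member linked to loss of anchorage, was at 12.5, 8.35 and 10.3 CPM in suspension and 19.9, 21.8 and 22.7 CPM on uncoated dishes, a change of 1.047 ± 0.14. The anti-apoptotic Bcl2 rose by 1.045 ± 0.25, a call that ended without suspension 1, 2 or 3, or without no coating 1 (adjusted p up to 0.0765). Bcl2l11, which encodes the pro-apoptotic BIM, lost its call without suspension 2, suspension 3 or no coating 2 (adjusted p up to 0.0672). Of 18 tested p53 targets 2 rose and 1, Plk2, fell (16.7%), beside 12.6% called over all tested genes. Phlda3, an inhibitor of AKT, was at 201, 199 and 204 CPM in suspension and 433, 374 and 448 CPM on uncoated dishes, a change of 1.054 ± 0.11, and the rise of Sesn1 (0.75) ended without suspension 2 or 3, or without no coating 2 or 3, or without batch 3 (adjusted p up to 0.114). Cdkn1a, the p21 inhibitor of cell cycle kinases, was at 0.31 ± 0.19 (adjusted p = 0.280).

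Stress and metabolic lists changed in a few members. Of 21 tested genes of the unfolded protein and integrated stress responses 4 rose (19%), beside 12.6% called over all tested genes. Atf4, the transcription factor of the integrated stress response, was at 450.0, 423 and 430.4 CPM in suspension and 576, 574 and 629 CPM on uncoated dishes, a change of 0.45 ± 0.071. The chaperone gene Hspa5 was at -0.039 (adjusted p = 0.708). Ddit4, an inhibitor of mTOR signalling, rose by 1.24 ± 0.28, a call that ended without suspension 3, or without batch 3 (adjusted p up to 0.0820). Psat1 (0.39) and Slc7a5 (0.40) also rose, but lost the call without any 1 of the suspension libraries or without no coating 2 or 3 (adjusted p up to 0.138 and 0.0977), and without suspension 3 the list held 1 gene that rose. Of 13 tested amino acid and glucose carriers 4 rose (30.8%), among them Slc1a4 at 0.63 ± 0.070. The other 3, Slc3a2, Slc7a5 and Slc6a6, lost the call without suspension 2 or without suspension 3, and Slc3a2 and Slc7a5 without other single libraries too.

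In the hypoxia and glycolysis list 2 of 20 tested genes rose and 2 fell (20%). The number that rose was 4 without no coating 1, without batch 3 or with DESeq2, and 6 with the block. Ndrg1, a stress-induced gene, was at 120.0, 112 and 121 CPM in suspension and 261, 291 and 306 CPM on uncoated dishes, a change of 1.28 ± 0.080. Pfkp, a phosphofructokinase, rose by 0.43 ± 0.080, while Egln3, a prolyl hydroxylase that marks HIF for breakdown, was at 399, 426 and 417 CPM in suspension and 227, 252 and 262 CPM on uncoated dishes, a change of -0.74 ± 0.081. Vegfa, described above, was the other fall. Slc2a1, the glucose transporter, was at -0.057 and Ldha, lactate dehydrogenase, at 0.33 (adjusted p = 0.0505, 0.0369 without batch 3 and 0.00315 with the block), neither past the threshold in the fit without the block. Of the heat shock genes 2 of 13 rose (15.4%), beside 12.6% called over all tested genes. With clock genes (2 rose and 1 fell of 14, 21.4%) and ribosome biogenesis factors (1 of 20 fell, 5%) there were 6 calls in all. These were Bag3, Cryab, Nr1d1, Tef, Npas2 and Rrs1. Each lost its call with several single libraries left out, with 0 heat shock genes called higher when any of suspension 1 and 3 and no coating 2 and 3 was removed.

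Cell cycle genes did not pass the test in the fit without the batch. Of 23 tested genes of G2 and mitosis 0 passed, with a median of -0.29, and of 21 tested genes of G1/S and DNA replication 0 passed, with a median of 0.20. Mki67, the proliferation marker Ki-67, was at 931, 958 and 856 CPM in suspension and 620.3, 579 and 234 CPM on uncoated dishes, a value of -0.94 ± 0.37 (adjusted p = 0.115). Top2a, a topoisomerase of dividing cells, was at 646, 641 and 666 CPM in suspension and 423, 385 and 159.9 CPM on uncoated dishes, a value of -1.01 ± 0.36 (adjusted p = 0.0832). In both genes no coating 3 was far lower than no coating 1 and 2, and the groups did not overlap, as in 42.4% of all tested genes. With the batch as a block 14 G2/M genes were lower and 0 higher, and without batch 3, 13 were lower and 0 higher. The list's medians in the 3 pairs were -0.29, -0.30 and -0.73. With the block 10 of the G1/S genes were higher and 3 lower, and without batch 3 0 passed. Ccnd1, cyclin D1, is described with the Wnt targets.

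Among 14 tested cardiac transcription factors 3 rose (21.4%). Nfatc2, a calcineurin-regulated factor, was at 1.94, 1.40 and 1.33 CPM in suspension and 12.9, 10.8 and 10.9 CPM on uncoated dishes, a change of 2.89 ± 0.17 (adjusted p = 2.85e-06), with groups that did not overlap. Gata6 was at 49.7, 47.5 and 46.4 CPM in suspension and 66.3, 67.8 and 71.5 CPM on uncoated dishes, a change of 0.52 ± 0.067. The rise of Mef2d (0.32) ended with any 1 of the 6 libraries left out (adjusted p up to 0.125). Gata4 was at 79.9, 98.4 and 96.9 CPM in suspension and 82.2, 92.3 and 94.7 CPM on uncoated dishes, a value of -0.031 ± 0.11 (adjusted p = 0.856).

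Of the cardiomyocyte markers 3 of 12 were tested and 1 rose. The 3 ran from -0.238 to 1.6, with a median of 0.426. Tnnt2, cardiac troponin T, was at 2.00, 1.85 and 1.55 CPM in suspension and 6.30, 5.57 and 4.52 CPM on uncoated dishes, a change of 1.601 ± 0.18. The summed level of that list was 10.7 to 15.1 CPM in suspension and 19.5 to 21.8 CPM on uncoated dishes, with Myh6, Myh7, Pln and Nkx2-5 at 0. The summed level of 9 blood cell markers was 35.4 to 38.2 CPM in suspension and 51.5 to 57.6 CPM on uncoated dishes. In that list Cd14 rose by 0.54 ± 0.074, Laptm5 rose with a call that ended without suspension 2 or 3, or without no coating 1 or 3, or without batch 3 (adjusted p up to 0.100), and Hbb and Tyrobp were at 0. The part of other cell types in the results was not tested.

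Endothelial markers summed to 98 to 186 CPM in suspension and 113 to 149 CPM on uncoated dishes. The 3 tested ran from -0.231 to 1.21, and 1 of them, Vwf, rose. Its call ended without suspension 2 or 3, or without no coating 1 or 2, or without batch 3 (adjusted p up to 0.140). Smooth muscle markers summed to 422 to 517 CPM in suspension and 374 to 399 CPM on uncoated dishes, and 1 of 4 tested fell, Smtn, smoothelin, at -0.59 ± 0.12. Of 9 tested mesenchymal markers S100a4 rose by 0.40 ± 0.078 and Pdgfrb as given above, while Vim was at 0.17 ± 0.060 (adjusted p = 0.0822, and 0.0225 with the block) and Col1a1 at -0.016 ± 0.13 (adjusted p = 0.937). None of 3 tested progenitor markers passed, with Kit at 3.58, 3.53 and 3.55 CPM in suspension and 2.85, 2.43 and 3.41 CPM on uncoated dishes (adjusted p = 0.222).

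Several of the largest changes lay outside the lists. Adgrg1, an adhesion G protein-coupled receptor, was at 6.05, 6.39 and 6.87 CPM in suspension and 57.8, 46.2 and 49.7 CPM on uncoated dishes, a change of 2.99 ± 0.12 (adjusted p = 3.51e-07). Adgre5, an adhesion receptor known as CD97, was at 54.3, 56.0 and 54.1 CPM in suspension and 237, 221 and 213 CPM on uncoated dishes, a change of 2.03 ± 0.074 (adjusted p = 2.24e-07). Each uncoated library was far above every suspension library in both genes. Gper1, a receptor that binds estrogen, was at 7.28, 3.03 and 4.27 CPM in suspension and 21.4, 17.4 and 18.0 CPM on uncoated dishes, a change of 1.97 ± 0.27.

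Pcsk2, a proprotein convertase, rose by 2.33 ± 0.30, Foxs1, a forkhead factor, by 2.12 ± 0.34, Rap1gap2, an inactivator of the GTPase RAP1, by 2.03 ± 0.12, and Rnf144b, a ubiquitin ligase, by 2.05 ± 0.13. The other rises among the 20 were Olfml2a (2.71), Neurl3 (2.41), Eepd1 (2.28), Mrgprf (2.25) and Arl4d (2.20). Among the falls, Mybl1, a MYB family factor, was at 107, 126 and 119.7 CPM in suspension and 30.4, 30.5 and 12.3 CPM on uncoated dishes, a change of -2.27 ± 0.40. Dlx2, a homeobox factor, was at 11.1, 14.5 and 16.2 CPM in suspension and 2.90, 4.22 and 3.58 CPM on uncoated dishes, a change of -1.97 ± 0.22, and Rab30, a Golgi GTPase, fell by 1.81 ± 0.15. Vof16, for which no role is given here, fell by 1.93 ± 0.35. All of these kept their calls with each library left out. Below the expression limit of the naming rule, Edn1, which encodes the vasoconstrictor endothelin 1, had 17, 34 and 26 counts in suspension and 3 counts over the uncoated libraries. It was chosen after its values were seen, as the largest fall by fitted fold change, and its ratio was 24.7-fold lower with a counting interval of 8.14 to 122.4.

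The 3 batches gave responses of unequal spread. Pair 1, pair 2 and pair 3 each set no coating against suspension of the same number. Rises of at least 2-fold numbered 171, 192 and 203 in these pairs, while falls of at least 2-fold numbered 134, 148 and 1200, which were 1.34%, 1.48% and 12% of the tested genes. The SD of the log2 differences over genes was 0.412, 0.441 and 0.71. Of the 1200 genes that were 2-fold lower in pair 3, 48 were also 2-fold lower in pairs 1 and 2, 132 were called lower and 0 higher. The fit with the block called 888 of these 1200 genes lower, out of its 1875 lower genes in all. The genes called higher had medians of 0.36, 0.40 and 0.52 in the 3 pairs, and those called lower had -0.55, -0.58 and -0.75. For the Notch list the pair medians were 0.90, 0.91 and 1.01, and for YAP and TAZ targets -0.34, -0.57 and -0.82. Across genes, which are not independent, the differences of pairs 1 and 2 correlated with r = 0.68, those of pairs 1 and 3 with r = 0.562 and those of pairs 2 and 3 with r = 0.706.

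**Figure D4:**
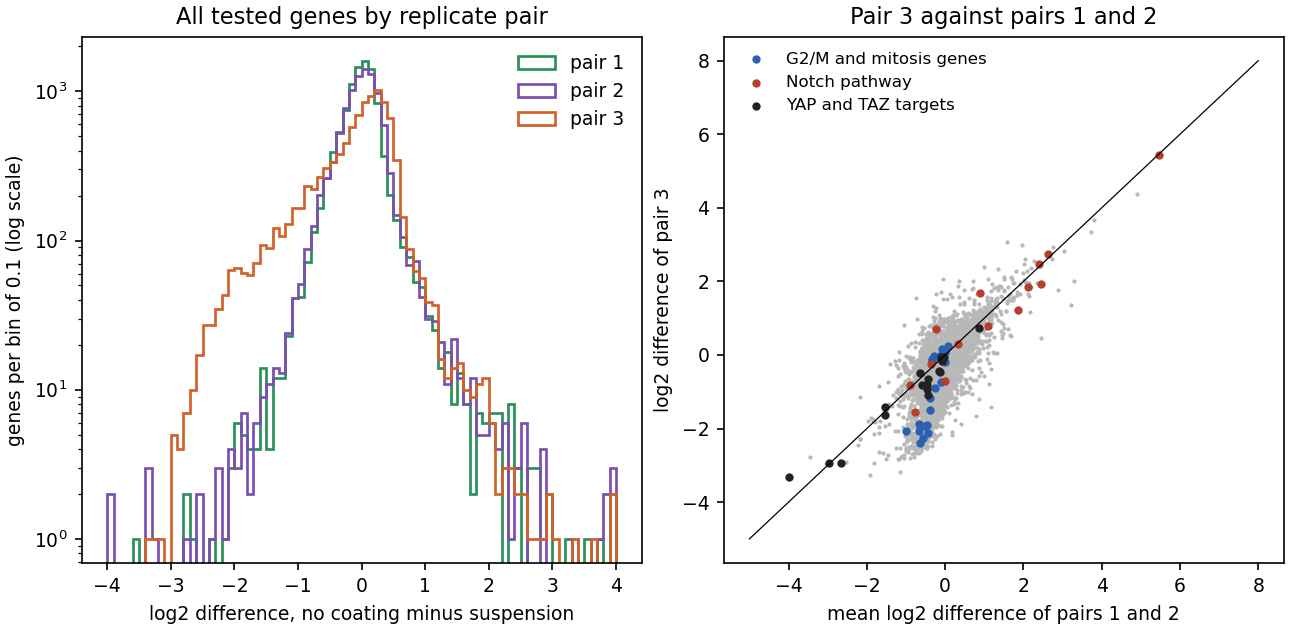
The left panel counts tested genes (log axis) per bin of 0.1 of the log2 difference, no coating minus suspension, for each replicate pair, with values beyond 4 in either direction placed in the end bins, and pair 3 alone has a long lower tail, 1200 genes at 2-fold or more. The right panel plots pair 3 against the mean of pairs 1 and 2 for each gene, where points under the diagonal were lower in pair 3, among them several G2/M genes and some YAP and TAZ targets.

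Plating on uncoated dishes was set against plating on coated dishes to see where the matrix protein made a difference. Of the 10020 genes, 18 differed between no coating and fibronectin (0.18%), 1 higher (0.00998%) and 17 lower (0.17%) on uncoated dishes. Of the 17, 6 were YAP and TAZ targets or regulators on the list and 1 was Plk2. Amotl2 was at 419, 386 and 441 CPM on fibronectin against 164, 160.3 and 176 CPM on uncoated dishes, a difference of -1.31 ± 0.10 (adjusted p = 0.000232). Ajuba was at 116, 103 and 112 CPM on fibronectin and 42.3, 41.7 and 42.7 CPM on uncoated dishes, a difference of -1.38 ± 0.11 (adjusted p = 0.000232). Fibronectin libraries thus stood near or above the suspension level of these genes, and uncoated libraries under it.

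Plk2 was at 53.6, 57.2 and 48.9 CPM on fibronectin and 15.7, 15.2 and 13.6 CPM on uncoated dishes, a difference of -1.84 ± 0.16 (adjusted p = 0.000488). Nuak2 differed by -1.62 ± 0.11 (adjusted p = 0.000173), Ccn2 by -2.15 ± 0.22 (adjusted p = 0.00198) and Ccn1 by -2.82 ± 0.34 (adjusted p = 0.00459). The difference of Ccn1 did not pass without batch 3 (adjusted p = 0.0947), and that of Ankrd1, at -1.99 ± 0.31 (adjusted p = 0.0330), not with 5 of the 6 libraries left out in turn: fibronectin 1, fibronectin 2, no coating 1, no coating 2 or no coating 3 (adjusted p up to 0.234). Nlrp3 (-1.94 ± 0.21), Sgk1 (-0.90 ± 0.10), Gata3, a zinc finger factor (-1.64 ± 0.17), and Rhob, a GTPase of the actin cytoskeleton (-0.92 ± 0.11), passed under every setting tried.

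For Nlrp3 and Sgk1 the fibronectin libraries, at 8.30, 6.32 and 7.62 CPM and 234, 234 and 249 CPM, lay between suspension and uncoated dishes. For Rhob they lay above both, at 126, 112 and 131 CPM against 52.5, 66.8 and 63.1 CPM in suspension and 64.9, 66.1 and 64.0 CPM on uncoated dishes. The gene that was higher on uncoated dishes than on fibronectin was Gem, a small GTPase, at 10.8, 10.9 and 12.4 CPM in suspension, 19.8, 20.1 and 21.3 CPM on fibronectin and 40.03, 31.2 and 34.7 CPM on uncoated dishes. Its difference from fibronectin, 0.79 ± 0.12 (adjusted p = 0.0297), did not pass without batch 3 or without fibronectin 1, 2 or 3 or no coating 1 or 3 (adjusted p up to 0.223). At an unadjusted p below 0.05, 344 genes differed from fibronectin. The block by batch gave 47 genes, of which 39 were lower on uncoated dishes. The test contrasts the plated groups directly, and each group's own change is taken from the same suspension libraries.

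Between uncoated dishes and laminin 0 genes passed in edgeR (0%), and 156 genes had an unadjusted p below 0.05. DESeq2 and the fit with the batch as a block also gave 0, and a fit of only these 2 groups with the block gave 3, Rn28s, Ccng2 and Tnfrsf12a, named after their values were seen. The SD of the log2 differences over genes was 0.149 for laminin and 0.188 for fibronectin. For the targets above, the laminin libraries were at 45.4, 33.8 and 45.1 CPM for Ajuba (difference 0.030 ± 0.11), 17.9, 15.5 and 14.7 CPM for Plk2 (difference -0.11 ± 0.16) and 75.9, 31.4 and 60.6 CPM for Ccn1 (difference 0.53 ± 0.32). For Notch1 the uncoated libraries stood at 263, 263 and 285 CPM beside 207, 194 and 199.8 CPM on fibronectin and 210.2, 199 and 271 CPM on laminin. Neither difference passed, with 0.43 ± 0.11 against fibronectin (edgeR adjusted p = 0.327, and 0.0737 with the block) and 0.26 ± 0.11 against laminin. A p above the threshold does not show that uncoated and laminin-coated dishes act alike.

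**Figure D5:**
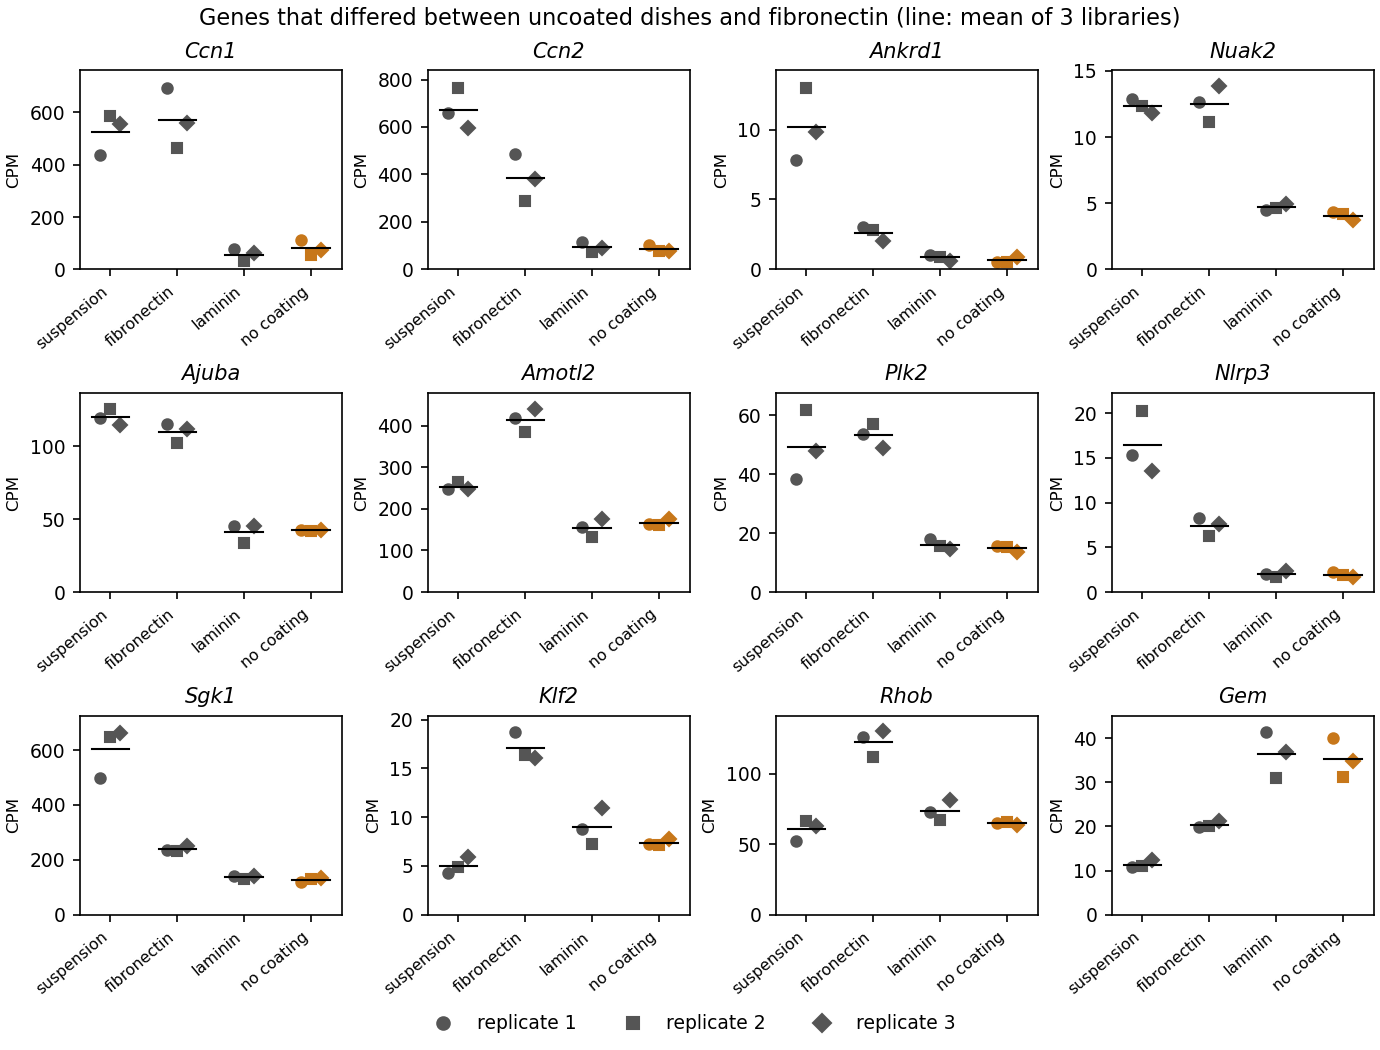
Each panel shows CPM of 1 gene, from 0, in the 3 libraries of each of the 4 groups, with uncoated dishes in orange, a marker shape for each replicate number and a line at the mean. For 11 of the 12 genes the uncoated libraries lie under the fibronectin libraries and near the laminin libraries, and for Gem they lie above fibronectin.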

How the data were processed

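Per the labels' protocols, TRIzol lysates gave total RNA, and the library kit was TruSeq Stranded Total RNA. The authors deposited raw read counts per Entrez gene identifier, 1 file per library, per the file headers, with rn4 as the build in the submitters' processing notes. Aligner, counter, annotation and strand setting were not given in the sources used, and reads of antisense partners and near-identical copies therefore cannot be told apart. Of 16924 identifiers 16761 matched a symbol in RefSeq GRCr8, used for names and promoters only, and the other 163 (0.301% to 0.357% of counts) stayed in the tests. Ribosomal RNA genes held 0.448% to 4.24% of the counts.

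Counts were tested with edgeR 4.0.16 in R 4.3.3 (filterByExpr, TMM, glmQLFit, glmQLFTest) on all 12 libraries in 1 means model of 4 groups, with 8 residual degrees of freedom, which pools the spread over groups. SE is the log2 fold change divided by the root of F. CPM are computed from the counts, and log2 CPM use a prior count of 2. On simulated counts the script was tested for recovery of known changes. DESeq2 1.42.0 was an alternative, beside library size scaling, no filter, the batch as a block (6 residual degrees of freedom), no batch 3, only the 2 groups, and each library left out. The labels give libraries of a number the same batch, so numbers pair the samples. Residuals around the group means had a median correlation of 0.409 in 18 same-batch pairs of libraries and -0.124 over 36 other pairs, and for no coating with suspension at 0.153, 0.287 and 0.036.

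Named genes are the 20 largest rises and 20 largest falls that had a mean log2 CPM no lower than 2 and 1 direction in all 3 batches, the 8 largest each way against each coating, and members of 38 gene lists, leaving out symbols starting with Mir, Snor, LOC, RGD or MGC. Promoters were searched for 5 motifs on both strands. Some list members are not reported here. The members and lists were chosen with earlier results of these data known.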

Additional observations from a re-analysis of the deposited data

Results flagged for a closer look

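The response to plating differed between uncoated dishes and fibronectin in 18 genes by the direct test of the 2 plated groups in edgeR, and this difference between groups is what singled them out. Values are log2 differences, no coating minus fibronectin. Among YAP and TAZ targets they were -2.82 for Ccn1, -2.15 for Ccn2, -1.99 for Ankrd1, -1.62 for Nuak2, -1.38 for Ajuba and -1.31 for Amotl2. The kinase genes Plk2, Sgk1 and Pim3 differed by -1.84, -0.90 and -0.97. The transcription factor genes Gata3, Klf2 and Meis1 differed by -1.64, -1.21 and -0.59. The other differences were -1.94 for Nlrp3, -1.18 for Gadd45b, -0.92 for Rhob, -0.79 for Metrnl, -0.54 for Fam107b and 0.79 for Gem.

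Not all of these held when the libraries changed. Klf2 did not pass without no coating 1 or no coating 2 (adjusted p up to 0.0645), Pim3 without fibronectin 3, no coating 1 or no coating 2 (up to 0.0909), and Metrnl without batch 3 or without fibronectin 1, fibronectin 3, no coating 1 or no coating 2 (up to 0.22). Meis1 did not pass without batch 3 or without fibronectin 2, fibronectin 3, no coating 1 or no coating 3 (up to 0.22), and Fam107b without batch 3 or without fibronectin 2, fibronectin 3 or any no coating library (up to 0.282). Gadd45b did not pass without batch 3 or with any 1 of the 6 libraries left out (up to 0.197).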

How the results depend on the processing

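The numbers pair the samples by batch. For no coating against suspension the replicate block on all 12 libraries gave 3889 genes (2014 higher, 1875 lower) and changed no call among the named genes that had passed. Without batch 3 the counts were 519 higher and 684 lower. With only the 2 groups compared they were 461 (284 higher, 177 lower), and with only these groups and the block 216 (141 higher, 75 lower). DESeq2 gave 692 lower genes and library size scaling 496 higher. Leaving out 1 library gave 537 to 1285 genes, 352 to 877 higher and 185 to 408 lower. Higher genes made up 67.4% of the calls, against 58.3% with DESeq2, 54.3% with library size, 51.8% with the block and 43.1% without batch 3.

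For no coating against fibronectin the block gave 47 genes (8 higher, 39 lower), DESeq2 53 (12 higher, 41 lower), no batch 3 11 (0 higher, 11 lower), only the 2 groups 11 (0 higher, 11 lower), and only the 2 groups with the block 73 (13 higher, 60 lower). Leaving out 1 library gave 10 to 14 genes, 0 to 1 higher and 10 to 14 lower. For laminin only the 2 groups with the block differed from 0, with 3 genes (2 higher, 1 lower).

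No named gene changed direction under any of these settings while called. Of 145 called genes, 17 lost the call with library size, 15 with no filter, 29 without batch 3, 42 with only the 2 groups and 68 with only the 2 groups and the block. The cause was not tested. Depth limits genes with few counts, such as Nrarp, Hey1 and Edn1, whose folds rest on 1 to 3 counts in 1 group.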

Other observations

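Gene families outside the lists were counted after the values had been seen, by symbol. Genes of cytosolic ribosomal proteins, the structural parts of the ribosome, were higher on uncoated dishes in small steps. Of 32 tested genes of the small subunit 28 rose and 0 fell (87.5%, median 0.35), and of 51 of the large subunit 30 rose and 0 fell (58.8%, median 0.33), beside 8.48% of all tested genes. The medians in pairs 1, 2 and 3 were 0.22, 0.35 and 0.47 for the small and 0.20, 0.33 and 0.45 for the large subunit. Without batch 3, 23 and 21 rose. Near-identical copies make the counts of single ribosomal protein genes uncertain. Of 69 mitochondrial ribosomal protein genes 2 rose.

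Of 38 tested proteasome subunits, which form the protease that degrades ubiquitin-tagged proteins, 13 rose and 0 fell (34.2%, median 0.26), and 6 rose without batch 3. Of 43 subunits of complex I, the entry point of the respiratory chain, 12 rose and 0 fell (27.9%, median 0.27), and 4 rose without batch 3. Among families with low values in no coating 3, 48 of 158 Zfp zinc finger genes were at least 2-fold lower in pair 3, beside 3 in pair 1 and 5 in pair 2. For 27 Cep genes of the centrosome these numbers were 11, 0 and 3, and for 39 Usp ubiquitin peptidases 14, 0 and 1. Over all tested genes the shares were 12% in pair 3, 1.34% in pair 1 and 1.48% in pair 2. What set this pair apart was not tested.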
